A study of Mus musculus with 6 samples.

Results

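Histone deacetylases remove acetyl groups from lysines, and the zinc-dependent ones fall into classes I, II and IV, of which class II and class IV are described here. This set of 7 genes was selected by family membership: the class IIa genes Hdac4, Hdac5, Hdac7 and Hdac9, the class IIb genes Hdac6 and Hdac10, and Hdac11, the single gene of class IV. Hdac10 heads it because its large difference on these arrays was already known, so its values are described without a test. Each gene was read by the probe set that carries its symbol alone and, for Hdac4 with 2 such probe sets, by the one with the higher mean of the 6 arrays. All 7 genes were measured, among 19938 genes with such a probe set.

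The arrays compared C1498 cells, a C57BL/6J mouse leukemia cell line that the labels call acute myeloid leukemia, after 48 h with the PARP-1 inhibitor PJ34 at 20 μM or with PBS as the control. PARP-1 adds poly(ADP-ribose) to itself and to chromatin proteins at sites of DNA damage and at promoters, and PJ34 is a small molecule that blocks this activity. Total RNA from 3 samples per group was hybridized to 1 Affymetrix mouse gene array each, and all 6 samples were of the same line in the same medium. The study calls them independent experiments and describes them no further, so p-values measure the spread between these arrays, which may be in part technical.

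Class IIa deacetylases are weak enzymes that act mainly as signal-dependent repressors: they bind MEF2 transcription factors and recruit Hdac3 with its corepressors, and kinases that phosphorylate them cause 14-3-3 proteins to carry them out of the nucleus. The class IIb enzyme Hdac6 works in the cytoplasm on tubulin, cortactin and Hsp90 and brings misfolded protein to the aggresome, whereas its closest relative Hdac10 deacetylates acetylated spermidine, a polyamine. Hdac11 removes long fatty acyl groups from lysines. In blood cells, class IIa members are best known from thymocytes and lymphocytes, where they hold back MEF2 targets such as the Nr4a genes.

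Values are log2 expression values, so a difference is the log2 of a ratio, and a value of one probe set cannot be ranked against that of another. Differences are PJ34 minus PBS with the standard error (SE) and 95% interval from limma, n = 3 arrays per group, and adjusted p-values cover all 23410 probe sets with a named gene. Over all of them 716 passed at an adjusted p under 0.05, 3.06% of those tested, with 402 higher (1.72%) and 314 lower (1.34%). Array medians lay between 4.67 and 4.78, and Pearson correlations over the probe sets tested ran from 0.997 to 0.998 for arrays of one group and from 0.996 to 0.997 for arrays of different groups.

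Hdac10 was lower with PARP-1 inhibition on every array. The PBS arrays read 8.23, 8.41 and 8.33, and the PJ34 arrays read 7.45, 7.35 and 7.37. The lowest PBS value lay 0.78 above the highest PJ34 value, a gap wider than the range within the PBS group (0.18) or the PJ34 group (0.10). The group means were 8.33 ± 0.0901 and 7.39 ± 0.0506 (SD, n = 3), and the difference was -0.94 (SE 0.0703, 95% interval -1.10 to -0.77). On the linear scale the level with PJ34 was 52.3% of that with PBS, or 1.91-fold lower (95% interval 1.71 to 2.14). Leaving out any 1 array moved the difference only between -0.98 and -0.89. In RNA from whole cultures, fewer cells with a transcript and less of it per cell cannot be told apart. In the mouse annotation a noncoding gene, Gm46530, overlaps Hdac10, and whether its RNA adds to this probe set was not tested.

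Hdac6, the other class IIb gene, had a difference near zero. Its PBS values were 5.89, 6.28 and 6.25, and its PJ34 values were 6.16, 6.24 and 6.23. The groups overlapped, and PBS replicate 1 stood below the other 5 arrays. The difference was 0.07 (SE 0.104, 95% interval -0.16 to 0.31, adjusted p = 0.801 from limma), and without PBS replicate 1 it was -0.05.

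**Figure D1:**
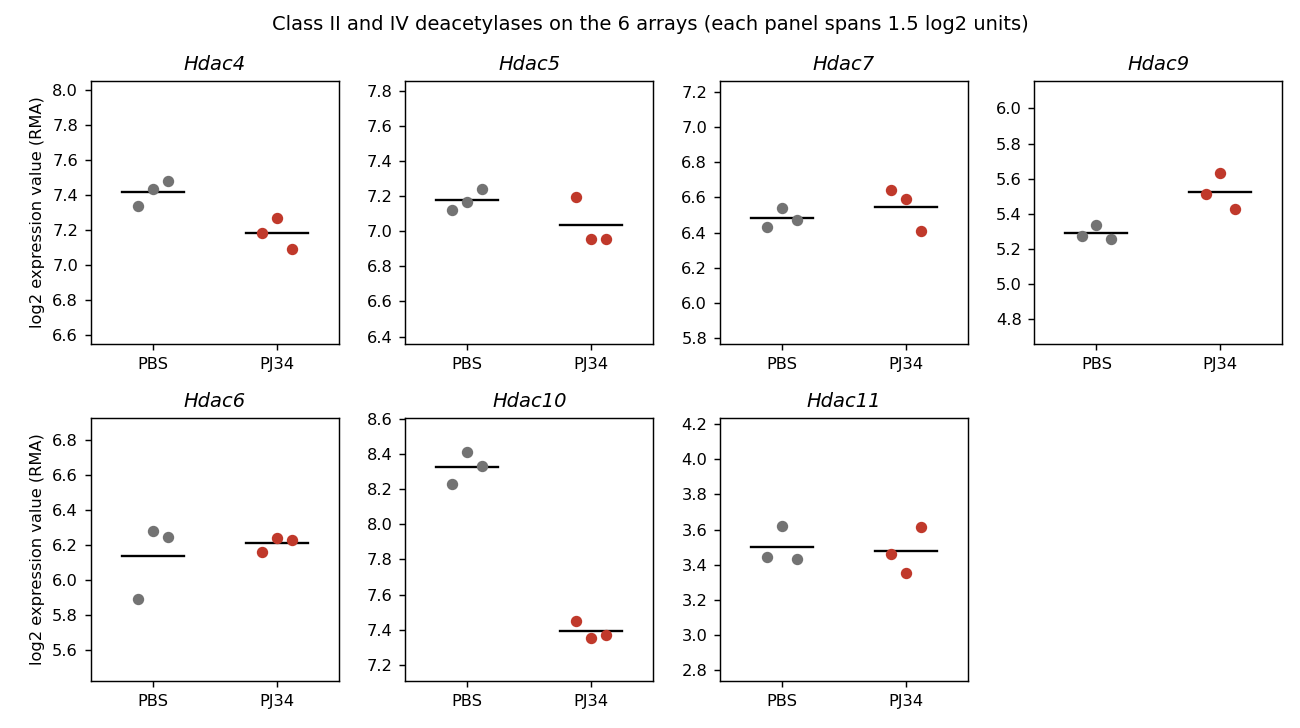
Log2 expression value (vertical axis) of the 7 class II and IV deacetylase genes by array, with the 3 PBS arrays in grey, the 3 PJ34 arrays in red and a line at each group mean; every panel spans the same number of log2 units. The Hdac10 groups stand 0.78 apart, those of Hdac4 and Hdac9 are separated by 0.07 and 0.09, and the groups of the other 4 genes overlap.

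Among the 4 class IIa genes, Hdac4 lay lower and Hdac9 higher with PJ34, each with groups that did not overlap, and neither passed the test. Hdac4, a repressor of MEF2 known from muscle, cartilage and neurons, read 7.34, 7.44 and 7.48 with PBS and 7.18, 7.27 and 7.09 with PJ34. The nearest arrays of the groups were 0.07 apart. Its difference was -0.24 (SE 0.0733, 95% interval -0.40 to -0.07, adjusted p = 0.138 from limma). The adjusted p of Hdac4 was 0.0443 with an intensity trend and robust variances and 0.0396 without the dim probe sets, those with a mean below the median. The second probe set of Hdac4, not chosen because its mean was 6.76 against 7.30, read 6.85, 6.74 and 6.85 with PBS and 6.58, 6.94 and 6.59 with PJ34. There the groups overlapped, PJ34 replicate 2 being the highest of the 6 arrays, with a difference of -0.11 (SE 0.104, adjusted p = 0.679 from limma).

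Hdac9, whose transcripts include one for a short protein without the deacetylase domain, read 5.27, 5.34 and 5.26 with PBS and 5.51, 5.63 and 5.42 with PJ34. All 3 PJ34 arrays lay above the PBS arrays, by at least 0.09. Its difference was 0.23 (SE 0.0725, 95% interval 0.07 to 0.40, adjusted p = 0.139 from limma), or a 1.18-fold higher level. It passed in the fit without dim probe sets (adjusted p = 0.0396 from limma) and under no other setting tried.

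Hdac5, which shares with Hdac4 the role of a signal-dependent MEF2 repressor, read 7.12, 7.17 and 7.24 with PBS and 7.20, 6.96 and 6.96 with PJ34. The groups overlapped through PJ34 replicate 1, while the other 2 PJ34 arrays lay below every PBS array. Its difference was -0.14 (SE 0.0827, 95% interval -0.33 to 0.05, adjusted p = 0.46 from limma). Hdac7, the class IIa gene most used in thymocytes, read 6.43, 6.54 and 6.47 with PBS and 6.64, 6.59 and 6.41 with PJ34. Its PJ34 values spanned all the PBS values, with a difference of 0.07 (SE 0.0781, 95% interval -0.11 to 0.24, adjusted p = 0.75 from limma).

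Hdac11 had PBS values of 3.44, 3.62 and 3.43 and PJ34 values of 3.46, 3.35 and 3.61. All 6 lay below 4.72, the median of the probe sets tested, where arrays resolve changes less well. The groups overlapped, and the difference was -0.02 (SE 0.0880, 95% interval -0.22 to 0.18, adjusted p = 0.932 from limma).

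Of the 7 members, 1 was lower at an adjusted p under 0.05 and 0 were higher, against 1.34% lower and 1.72% higher among all probe sets. Since the one is Hdac10, whose difference was known, nothing is read from that count. Among the 6 other than Hdac10, the groups did not overlap for 2, Hdac4 and Hdac9, against 23.5% of all probe sets. The same 2 had an unadjusted p under 0.05, where 16.7% of all 19938 genes (3330) did. The methods' t-test with adjustment passed 0 of the 6. The median difference of the members was -0.02, with a range of -0.94 to 0.23, and the median over all 19938 genes was 0.00437. The other class IIb gene, the class IIa genes and the class IV gene each differed by 0.24 or less in size on the log2 scale.

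RefSeq promoter windows, 250 bases before to 50 after a transcript start in GRCm38.p6, were given here for 6 of the 7 members, all but Hdac10. Those of Hdac4 (chr1:92180292-92180591), Hdac9 (chr12:34917046-34917345) and Hdac5 (chr11:102230123-102230422), all on the minus strand, are shown 5′ to 3′ because Hdac4 and Hdac9 are the class IIa genes whose groups separated, in opposite directions, and because Hdac5 holds a MEF2-like match. Capitals mark matches on either strand to GGGCGG (a GC box, in 35.7% of all 32851 windows), CCAAT (37.4%), TATAAA (13.6%), CACGTG (an E-box, 7.15%) and CTATTTTTA (the first 9 letters of a MEF2 element, 0.493%).
Hdac4: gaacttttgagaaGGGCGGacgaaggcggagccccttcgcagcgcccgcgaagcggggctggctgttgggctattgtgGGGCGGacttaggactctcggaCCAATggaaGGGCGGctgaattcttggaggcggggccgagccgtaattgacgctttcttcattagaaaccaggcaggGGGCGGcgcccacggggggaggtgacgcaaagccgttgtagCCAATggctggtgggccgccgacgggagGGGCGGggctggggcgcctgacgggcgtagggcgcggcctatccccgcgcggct
Hdac9: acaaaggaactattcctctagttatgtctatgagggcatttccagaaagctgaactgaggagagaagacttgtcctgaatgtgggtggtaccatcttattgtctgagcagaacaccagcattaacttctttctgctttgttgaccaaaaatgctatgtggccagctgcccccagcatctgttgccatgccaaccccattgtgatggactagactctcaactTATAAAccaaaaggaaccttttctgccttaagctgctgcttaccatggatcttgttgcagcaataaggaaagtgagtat
Hdac5: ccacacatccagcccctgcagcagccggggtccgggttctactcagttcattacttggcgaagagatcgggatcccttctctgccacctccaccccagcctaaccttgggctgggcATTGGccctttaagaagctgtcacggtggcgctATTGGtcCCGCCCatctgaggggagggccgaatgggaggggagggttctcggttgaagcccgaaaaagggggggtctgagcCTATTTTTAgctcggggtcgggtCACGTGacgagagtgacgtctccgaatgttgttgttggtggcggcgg
The Hdac4 window is GC-rich, at 68% G and C, with 5 GC boxes and 2 CCAAT matches, whereas the Hdac9 window shown, the first of 2, has 44% G and C, no GC box and 1 TATAAA match. The other Hdac9 window held none of these letters. The Hdac5 window holds 1 GC box, 2 CCAAT matches, 1 E-box and 1 CTATTTTTA match. The Hdac6 window had 5 GC boxes and 2 CCAAT matches, and that of Hdac11 had 1 of each. Of 4 windows of Hdac7, 1 held a single GC box and the others held none of these letters. A match is a run of letters and does not show that a factor binds there.

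The class I deacetylases, nuclear enzymes that work in large corepressor complexes, set the other family members beside these values. At an adjusted p under 0.05, 1 of 4 was lower and 0 higher, against 1.34% and 1.72% of all probe sets. The methods' t-test with adjustment passed 0. An unadjusted p under 0.05 from limma was found for 2, against 16.7% of all genes. Hdac8, the class I enzyme that acts outside those complexes and deacetylates the cohesin subunit Smc3, read 5.92, 6.00 and 6.02 with PBS and 5.37, 5.73 and 5.46 with PJ34. It was lower on all 3 PJ34 arrays, with a difference of -0.46 (SE 0.0961, adjusted p = 0.0427 from limma). That call was lost in 5 of 6 fits that left out 1 array, those without PBS replicate 1, 2 or 3 or without PJ34 replicate 1 or 3 (adjusted p = 0.107 to 0.144 from limma). Hdac2, a core enzyme of the Sin3, NuRD and CoREST complexes, read 8.80, 8.85 and 8.82 against 8.95, 9.02 and 8.94, with a difference of 0.15 (SE 0.0606, adjusted p = 0.268 from limma). Its PJ34 values lay above all PBS values, by a margin of 0.09. Hdac1, the partner of Hdac2, differed by -0.02 (SE 0.0603), and its other probe set by -0.04; both probe sets can also read a near-identical pseudogene and are uncertain. Hdac3, the catalytic subunit that class IIa proteins recruit, differed by 0.01 (SE 0.0598, adjusted p = 0.944 from limma), and its sign turned when arrays were centered on their medians.

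The sirtuins, deacetylases that use NAD, the same cofactor that PARP-1 consumes, were measured for 7 of 7 genes. Sirt6, a chromatin enzyme that deacetylates and mono-ADP-ribosylates proteins, was lower with a difference of -0.36 (SE 0.0769, adjusted p = 0.0459 from limma). Sirt3, the main mitochondrial deacetylase, was lower with a difference of -0.34 (SE 0.0609, adjusted p = 0.0251 from limma). These 2 calls were also fragile: leaving out any 1 array ended that of Sirt6 (adjusted p = 0.0522 to 0.165 from limma), and leaving out any array but PJ34 replicate 2 ended that of Sirt3 (0.0661 to 0.111). The other 5 sirtuins did not pass, at 0.19 for Sirt1, -0.18 for Sirt2, 0.04 for Sirt4, -0.10 for Sirt5 and 0.16 for Sirt7. The median over the sirtuins was -0.10. At an adjusted p under 0.05, 2 of 7 were lower and 0 higher, against 1.34% and 1.72% of all probe sets. The methods' t-test with adjustment passed 0. An unadjusted p under 0.05 from limma was found for 4, or 57.1%, against 16.7% of all genes. The groups did not overlap for 5, against 23.5% of all probe sets.

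**Figure D2:**
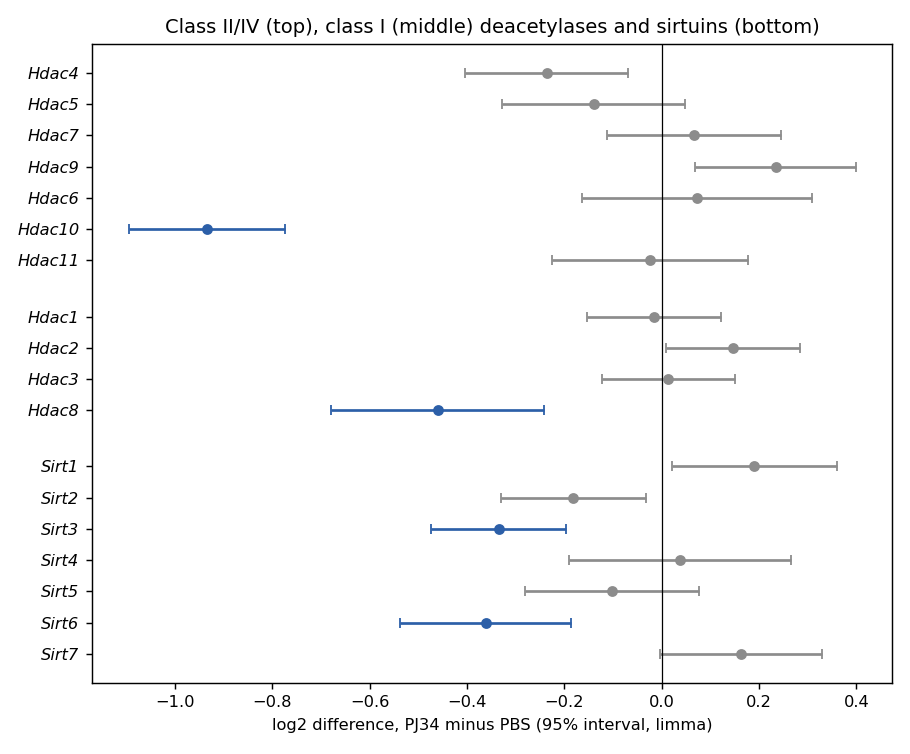
Log2 difference, PJ34 minus PBS (horizontal axis), of class II and IV deacetylases, class I deacetylases and sirtuins, with 95% intervals from limma; blue marks genes lower at an adjusted p under 0.05 and grey the rest. Hdac10, in the set for its known difference, lies at -0.94, and Hdac8, Sirt3 and Sirt6 lie between -0.46 and -0.34.

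Calls among genes that work with these deacetylases were counted by list, beside 1.72% higher and 1.34% lower among all probe sets. At those shares few calls are to be found in lists of this size, so nothing is read from the counts in this paragraph. The counts at an unadjusted p under 0.05 given for these lists stand beside 16.7% of all genes. In the corepressor complexes, 33 of 35 listed genes were measured and 1 rose, Trerf1, a zinc finger partner of Hdac1 and Hdac2 (difference 0.31, SE 0.0670, adjusted p = 0.0465 from limma); the median was 0.02. Leaving out any 1 array, or centering the arrays, ended this call (adjusted p = 0.0844 to 0.137 from limma). Of 25 kinases, 14-3-3 proteins and export genes that move class IIa proteins out of the nucleus, 0 passed the limma test, 6 had an unadjusted p under 0.05, and the methods' t-test with adjustment passed 0; the median was 0.06, and an intensity trend with robust variances passed 2 upward and 1 downward. The smallest p among them belonged to Prkd2, protein kinase D2, a kinase of class IIa deacetylases, which read 8.74, 8.81 and 8.81 with PBS and 8.53, 8.53 and 8.45 with PJ34 (difference -0.28, SE 0.0627, adjusted p = 0.0531 from limma). Camk2d, a calcium-dependent kinase named after its value was seen, differed by about the same size the other way (0.28, SE 0.0642, adjusted p = 0.0579 from limma). Among MEF2 proteins and other factors that bind class IIa deacetylases, 14 of 16 were measured and 0 passed, with 4 at an unadjusted p under 0.05, 0 passed by the methods' t-test and a median of -0.02. Runx1, a blood transcription factor, came nearest at 0.25 (SE 0.0623, adjusted p = 0.0772 from limma). Prkd2 and Runx1 both passed with an intensity trend and robust variances (adjusted p = 0.00385 and 0.0156 from limma).

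Target genes of MEF2 included the 4 largest differences among the related lists, those of Il2, Nr4a2, Nr4a3 and Nr4a1, and these were rises. Of 16 measured, 6 rose and 0 fell, against 1.72% and 1.34% of all probe sets, and the median was 0.15. The list was chosen with earlier results of these data known, so these counts are not independent evidence about MEF2 targets. Il2, a T cell cytokine, read 5.75, 5.64 and 5.84 with PBS and 6.93, 6.91 and 6.74 with PJ34 (difference 1.12, SE 0.0814, adjusted p = 0.000686 from limma). The orphan nuclear receptor Nr4a2 read 7.47, 7.44 and 7.54 with PBS and 8.32, 8.54 and 8.38 with PJ34 (difference 0.93, SE 0.0749). Its relatives Nr4a3 and Nr4a1, which like Nr4a2 are early genes of cell activation under MEF2, CREB and other factors, differed by 0.89 (SE 0.0695) and 0.77 (SE 0.0656). With PBS replicate 1 or 2 or PJ34 replicate 1 or 3 left out, 5 of the 16 rose. For all 4 genes every PJ34 array lay above every PBS array, and the call held without any 1 array. Nr4a3 lay below the median level on all 6 arrays, and Il2 was one of the genes that the study picked on these arrays, so its direction is not independent evidence. The other 2 that passed were the Krüppel-like factors Klf6 (0.68) and Klf2 (0.40).

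Of the substrates of Hdac6 and genes of the aggresome, 16 of 19 were measured, and the median was 0.19. In the main fit 2 rose and 0 fell, against 1.72% and 1.34% of all probe sets, and the methods' t-test with adjustment passed 0. An unadjusted p under 0.05 from limma was found for 11, or 68.8%, against 16.7% of all genes. An intensity trend with robust variances gave 8 higher and 1 lower in this list, and 1008 higher and 920 lower over all 23410 probe sets. Tuba4a, an α-tubulin, rose by 0.48 (SE 0.0888, adjusted p = 0.0278 from limma), and Sqstm1, the autophagy receptor p62, by 0.35 (SE 0.0669, adjusted p = 0.0325 from limma). Leaving out PBS replicate 1 or 2 or any PJ34 array ended the call for Tuba4a (adjusted p = 0.0622 to 0.113 from limma), and leaving out any array but PJ34 replicate 2 ended that for Sqstm1 (0.0837 to 0.117). In polyamine metabolism, the pathway of the Hdac10 substrate, 18 of 22 were measured, and the median was -0.02. An unadjusted p under 0.05 from limma was found for 6, or 33.3%, against 16.7% of all genes. The trend called 3 lower, the fit without dim probe sets 4 of 13, and the methods' t-test 0. In the main fit 1 fell and 0 rose, against 1.34% and 1.72% of all probe sets. The one was Azin1, an activator of ornithine decarboxylase, with values of 8.56, 8.59 and 8.52 with PBS and 8.12, 8.33 and 8.07 with PJ34 (difference -0.38, SE 0.0801, adjusted p = 0.0427 from limma). Its call was lost without any array but PJ34 replicate 2 (adjusted p = 0.119 to 0.150 from limma). Ornithine decarboxylase itself, Odc1, and the spermidine acetyltransferase Sat1, named here as the best known enzymes of the pathway, differed by 0.10 and 0.13 and did not pass. Of 19 lysine acetyltransferases, the enzymes that add the mark, 0 passed, against 3.06% of all probe sets. An unadjusted p under 0.05 from limma was found for 4, against 16.7% of all genes, and 0 passed by the methods' t-test. The median was 0.04, and Crebbp came nearest at 0.24 (SE 0.0628, adjusted p = 0.0900 from limma).

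**Figure D3:**
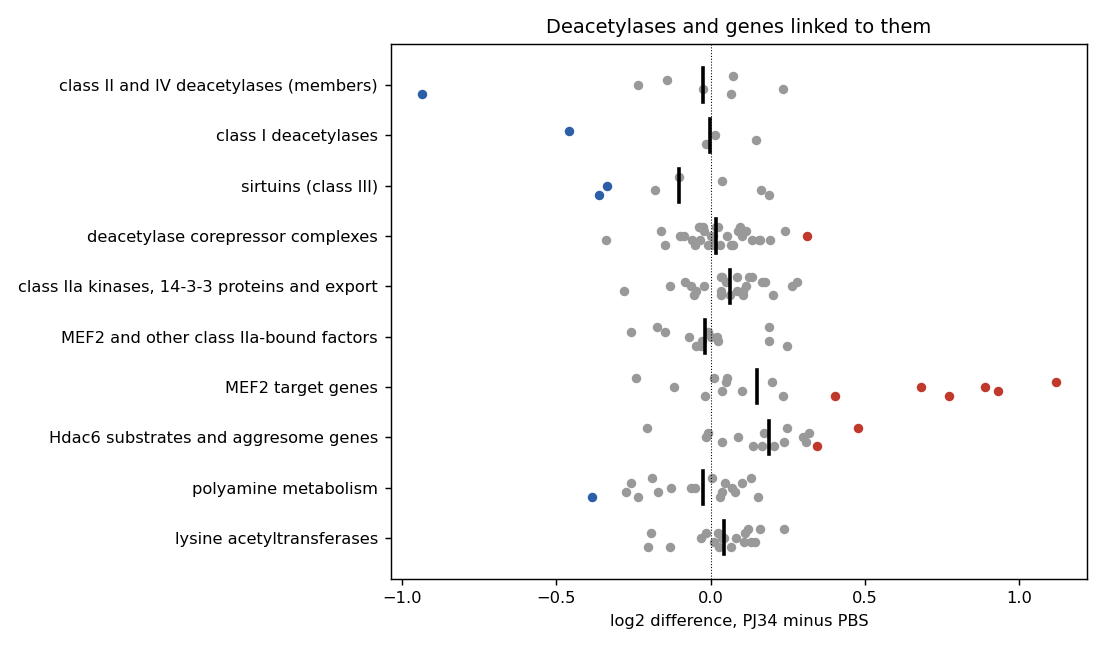
The horizontal axis gives the log2 difference, PJ34 minus PBS, and each point is 1 measured gene of the deacetylase families and in 7 lists of genes linked to them; genes that passed upward are red, genes that passed downward are blue, the rest are grey, and a black bar marks the median of each list. Hdac10 is the leftmost point at -0.94, and 6 of the MEF2 targets lie between 0.40 and 1.12.

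The genes beside Hdac10 on chromosome 15 included others that were much lower with PJ34. Among the 5 measured genes on each side in the gene order of the annotation, 2 of 10 were lower at an adjusted p under 0.05, against 1.34% of all probe sets, 0 were higher, and the median was -0.28. Both lie on one side of Hdac10, at places 2 and 3 from it. Mapk11, which encodes the stress kinase p38β, read 8.14, 8.24 and 8.26 with PBS and 7.22, 7.22 and 7.05 with PJ34, with a difference of -1.05 (SE 0.0738, adjusted p = 0.000616 from limma). Plxnb2, a plexin receptor for semaphorins, read 6.97, 7.13 and 7.04 with PBS and 6.26, 6.22 and 6.06 with PJ34, with a difference of -0.87 (SE 0.0781, adjusted p = 0.00161 from limma). As with Hdac10, the groups stood far apart, and both calls held without any 1 array; that of Plxnb2 was lost under the methods' t-test (adjusted p = 0.0517). Mapk11 was one of the genes that the study picked on these arrays, so its fall is not independent evidence.

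Between Hdac10 and Mapk11 lies Mapk12, which encodes p38γ, with a difference of -0.27 (SE 0.0926, adjusted p = 0.184 from limma). The γ-tubulin complex gene Tubgcp6, next to Hdac10 on its other side, differed by -0.29 (adjusted p = 0.0812 from limma), and its second probe set, chosen after its value was seen, by -0.32 (adjusted p = 0.0251 from limma). Trabd at -0.32 (adjusted p = 0.0635 from limma) and Dennd6b, a regulator of Rab GTPases, at -0.30 (adjusted p = 0.0666 from limma) also had groups that did not overlap and did not pass. With an intensity trend and robust variances, or without dim probe sets, 5 of the 10 passed downward. The others were Mov10l1, an RNA helicase of germ cells (-0.17), the channel gene Panx2 (0.08), Selenoo, a selenoprotein of mitochondria (-0.02), and the phosphatase subunit gene Ppp6r2 (-0.04). Farther out the differences were small: the 40 measured genes at places 6 to 25 on either side ranged from -0.20 to 0.19, with a median of 0.01. Of these, 0 passed the limma test, against 3.06% of all probe sets, and 0 the methods' t-test. At that share few calls are to be found among 40 genes, so nothing is read from this count. An unadjusted p under 0.05 from limma was found for 1 (Tbc1d22a at -0.20), against 16.7% of all genes.

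**Figure D4:**
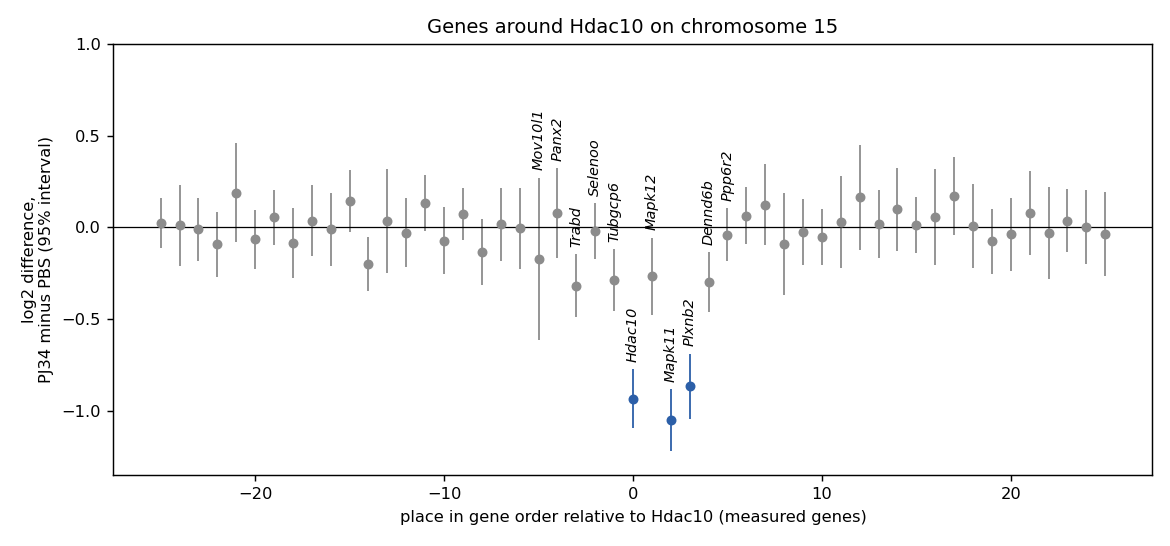
Log2 difference, PJ34 minus PBS (vertical axis), with 95% intervals, of Hdac10 and the 25 measured genes on each side of it, by place in the gene order (horizontal axis, not to scale in bases); blue marks genes lower at an adjusted p under 0.05. Hdac10, Mapk11 and Plxnb2 lie between -1.05 and -0.87, and the 40 genes at places 6 to 25 lie between -0.20 and 0.19.

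Around the other 6 members, 0 of 10 neighbors passed for Hdac4, Hdac5, Hdac6 and Hdac9, and 1 of 10 was lower for Hdac7 (Pfkm, a phosphofructokinase) and for Hdac11 (Fbln2, a fibulin). Counted the same way around each of 19645 genes, 0 of 10 neighbors were lower for 87.1%, 1 for 11.9% and 2 for 0.835%, while 15 genes had 3 and 4 genes had 4. The genes with 3 include Selenoo, Tubgcp6, Mapk12, Dennd6b and Ppp6r2, which lie around Hdac10 itself, and the genes with 4 lie on chromosome 10. Neighboring genes share these windows, so the counts are not independent and are given as a description.

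The promoter windows of Mapk11 (chr15:89149557-89149856) and Plxnb2 (chr15:89180739-89181038), on the minus strand of GRCm38.p6 from RefSeq, are shown because these genes were lower beside Hdac10, with the same letters in capitals as above.
Mapk11: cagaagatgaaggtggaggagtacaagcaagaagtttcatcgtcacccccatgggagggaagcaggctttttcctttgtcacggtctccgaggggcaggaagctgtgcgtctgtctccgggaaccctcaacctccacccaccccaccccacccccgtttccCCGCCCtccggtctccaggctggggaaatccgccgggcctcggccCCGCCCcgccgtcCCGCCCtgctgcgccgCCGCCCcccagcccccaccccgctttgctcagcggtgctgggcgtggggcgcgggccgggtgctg
Plxnb2: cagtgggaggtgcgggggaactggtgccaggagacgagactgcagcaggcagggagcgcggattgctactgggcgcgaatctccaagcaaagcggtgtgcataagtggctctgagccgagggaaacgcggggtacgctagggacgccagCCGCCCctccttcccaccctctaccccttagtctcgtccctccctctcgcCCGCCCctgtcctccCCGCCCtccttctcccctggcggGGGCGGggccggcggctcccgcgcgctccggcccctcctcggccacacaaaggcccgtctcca
Each holds 4 GC boxes and none of the other letters searched, at 69.7% and 70.3% G and C. Plxnb2 has a second window, with 3 GC boxes. GC boxes were not particular to these 2 genes. Among neighbors that did not pass, each Trabd window held 4, those of Dennd6b and Ppp6r2 held 2, and those of Tubgcp6, Mapk12 and Mov10l1 held 1. The Selenoo window held none, and no window was given for Hdac10 or Panx2.

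Genes with the profile most like that of Hdac10 over the 6 arrays were found by the root mean square distance between values centered on each gene's own mean. Of 19937 other genes, the 5 closest were Add3, a protein of the membrane skeleton (distance 0.0445), Chac1, which degrades glutathione (0.0517), Paqr3, a Golgi protein (0.0621), Plxnb2 (0.0652) and Pck2, the mitochondrial phosphoenolpyruvate carboxykinase (0.0736). Add3 read 6.35, 6.46 and 6.42 with PBS and 5.48, 5.50 and 5.40 with PJ34, a difference of -0.95. Differences of the others were -0.91 for Chac1, -0.89 for Paqr3, -0.87 for Plxnb2 and -0.82 for Pck2. Mapk11 ranked 8th by this distance (0.0833). With 6 arrays in 2 groups, the distance mainly finds genes with a fall of the same size.

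The labels call the line myeloid, and markers of several cell types were read beside this label. Levels of different probe sets are not comparable, so the count of markers with a mean above 4.72, the median over probe sets, is only a rough description and does not settle what the cells are. It was 5 of 19 for myeloid markers, namely Ptprc, Fcgr1, Cd68, Cebpa and Cebpe. Mpo, Elane, Csf1r, Csf3r, Spi1 and Itgam were among those below. The count was 7 of 15 for T and NK markers, with Cd3e and Cd3g above and Cd4, Cd8a, Cd2 and Cd5 below. It was 0 of 8 for B cell markers, 1 of 6 for erythroid and megakaryocyte markers and 3 of 8 for fibroblast markers. The cells are called here by the name of the line. With PJ34, 5 of 15 T and NK markers rose, Cd7 (1.66), Cd28 (1.44), Gzma (0.90), Cd4 (0.62) and Gata3 (0.34), and 0 fell, against 1.72% and 1.34% of all probe sets. The other 10 did not pass, with Zap70 at -0.26 (adjusted p = 0.0640 from limma), Nkg7 at -0.17 and Cd3d at -0.10. The sum of the 15 log2 values was 85.7 to 85.9 with PBS and 90.7 to 91.0 with PJ34, a rise that comes almost entirely from the 5 genes that passed. Cd7 and Cd28 were picked by the study from these same arrays, and their rise is no independent evidence. Of the myeloid markers, 2 of 19 rose, Fcgr1 (0.63) and Cd68 (0.51), and 0 fell, against 1.72% and 1.34% of all probe sets. The sum over the 19 was 77.9 to 79.2 with PBS and 79.3 to 80.9 with PJ34. The part of these markers in the differences of Hdac10, of the MEF2 targets and of the other genes above was not tested.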

How the data were processed

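Per the labels, RNA of 3 PBS and 3 PJ34 samples was labeled with biotin and hybridized to Affymetrix mouse gene arrays; the authors deposited log2 expression values, summarized by RMA in Affymetrix Expression Console 1.3.1 (background corrected and quantile normalized). The sample titles call the PBS samples untreated and the PJ34 samples drug. The genome build was not given in the sources used here. Of 35556 probe sets, the platform gene table named 21789 by 1 gene and 1621 by several and listed no gene for 12146; the 23410 named ones were compared, PJ34 minus PBS, with limma 3.58.1 in R 4.3.3 (lmFit, eBayes) and Benjamini-Hochberg adjustment at 0.05, after the fit was tested on simulated data. Arrays give no counting depth, and their number limits the precision; an exact permutation test of 3 against 3 cannot go below 0.1.

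The members and gene lists were chosen with earlier results of these data known. Named are the members, the class I genes, in each list up to 4 genes that passed by size of difference, or the smallest p where none passed, the 5 measured genes on each side of Hdac10, and the 5 most similar profiles; Klf6, Klf2, the sirtuins that did not pass, Odc1, Sat1, single markers and the neighbors that passed beside other members were added after their values were seen. Gene order came from the RefSeq annotation and promoter windows from RefSeq (GRCm38.p6). Listed genes without a probe set of their own were not analysed here. Alternatives were an intensity trend with robust eBayes, arrays centered on their medians, leaving out probe sets with a mean below the median, other sets of probe sets, the methods' t-test, the replicate number as a block, each array left out, and the mean of all probe sets of a member.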

Additional observations from a re-analysis of the deposited data

How the results depend on the processing

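The difference of Hdac10 lay between -0.98 and -0.89 with 1 array left out, and with arrays centered on their medians it was -0.95. The other alternatives could not move a difference between the group means of its 1 probe set, and it stayed at -0.94. Counts of calls depended on the setting. Against 402 probe sets higher and 314 lower, 1008 and 920 were called with an intensity trend and robust variances, and leaving out dim probe sets gave 923 and 836. Testing all probe sets of the table gave 112 and 76, the methods' t-test gave 78 and 62, and fits without 1 array gave 143 to 281 and 79 to 320. For the class II and IV genes other than Hdac10, with 0 called, the trend called 1 and the fit without dim probe sets called 2. For the related lists, class I genes and sirtuins included, with 9 higher and 4 lower, the trend gave 20 and 10, the fit without dim probe sets 17 and 11, all probe sets 5 and 0, the methods' t-test 5 and 0, and fits without 1 array 5 to 7 and 0 to 3. Of the neighbors of Hdac10, with 2 lower, the trend and the fit without dim probe sets called 5, and the methods' t-test called 1.

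Whether samples with the same replicate number shared a culture or day is not stated. Their deviations from the group means correlated at -0.0131, 0.131 and -0.00893. PBS replicate 1 correlated best with PJ34 replicate 3 (0.145), and PBS replicate 2 best with PJ34 replicate 2. With 3 arrays per group, these correlations can neither show nor exclude a pairing. With the replicate block, 219 probe sets were higher and 140 lower, 0 genes of the related lists were lower, and no member's call changed.

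Signs turned for 7 genes that had not passed the test: Hdac6 at -0.051 to 0.14 without 1 array, Hdac11 at -0.092 to 0.039, Hdac1 at -0.042 to 0.0029, Hdac3 at -0.0068 to 0.037 and at -0.0059 with centered arrays, Mov10l1 at -0.41 to 0.023, Panx2 at -0.0086 to 0.17 and Selenoo at -0.042 to 0.029. Leaving out dim probe sets gave no value for Hdac11, Nr4a3 or Mov10l1. The cause of these shifts was not tested, beyond the fewer arrays or different numbers of probe sets that some settings imply.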
